A study of Rattus norvegicus with 46 samples.

Results

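The 36 genes described here cover how a cell makes, senses, exports and stores cholesterol and how it makes fatty acids. They were taken by gene name from a list and are 36 of the 30045 genes measured, with 1 row each in all 4 count tables. By role, 18 encode enzymes of cholesterol synthesis, 5 sense or carry sterols, 6 belong to cholesterol efflux and the liver X receptors (LXRs), 6 to fatty acid synthesis, and 1, Soat1, makes cholesterol esters. Uptake is represented by Mylip alone, which encodes a ligase that marks lipoprotein receptors for degradation.

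Male Fischer 344 rats, aged per the series title, breathed either crystalline silica, as the fine quartz dust Min-U-Sil 5, or filtered air in a whole-body chamber. Silica was given at 15 mg/m3, and exposure lasted 6 hours a day for 5 days. Lung and blood RNA was sequenced from animals killed 1 day or 6 months after exposure, which gives 8 groups by tissue, time and exposure. The comparisons below set silica against air within each tissue and time, then test whether the effect differs by time and by tissue.

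Cells adjust cholesterol synthesis through SREBP2, a membrane-bound transcription factor that SCAP escorts from the endoplasmic reticulum when sterol is low and that the INSIG proteins hold back when sterol is plentiful. Excess sterol is converted to oxysterols that activate the LXRs, which raise the exporters ABCA1 and ABCG1, the ligase MYLIP and SREBP1, the driver of fatty acid synthesis. In the lung, type 2 cells make surfactant lipid and alveolar macrophages clear it.

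Promoter sequence was read for every member with a match, since SREBP2 and the LXRs act through short DNA motifs. RefSeq (GRCr8, a later build than the Rnor_6.0 of the count tables) gave a promoter for 28 of the 36 genes, 29 promoters in all because Srebf1 has a pair, each running from 250 bases before to 50 bases after the transcript start. A motif search on both strands used CCAAT (bound by NF-Y, a partner of SREBP2), GGGCGG (bound by SP1), TCACNCCAC (a strict sterol regulatory element) and a repeat of GGTNA with 5 bases between (bound by LXRs), in which N is any base. Shown here, 5′ to 3′, are the 250 bases before the start of Hmgcs1 and Idi1, the mevalonate genes with the largest rises at 1 day, and of Abca1, the exporter with the largest fall. Capitals mark CCAAT on the opposite strand in Hmgcs1 and Idi1 and the LXR repeat, also on the opposite strand, in Abca1.
Hmgcs1: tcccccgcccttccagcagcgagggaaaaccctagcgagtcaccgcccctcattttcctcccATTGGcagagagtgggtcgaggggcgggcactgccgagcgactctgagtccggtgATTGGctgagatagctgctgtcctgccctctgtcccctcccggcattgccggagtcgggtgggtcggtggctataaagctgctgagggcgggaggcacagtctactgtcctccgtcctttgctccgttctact
Idi1: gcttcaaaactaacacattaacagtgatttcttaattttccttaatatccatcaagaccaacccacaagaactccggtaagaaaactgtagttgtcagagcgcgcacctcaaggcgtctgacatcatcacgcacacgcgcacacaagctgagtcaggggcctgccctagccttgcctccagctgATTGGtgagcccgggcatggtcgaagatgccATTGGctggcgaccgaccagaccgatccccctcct
Abca1: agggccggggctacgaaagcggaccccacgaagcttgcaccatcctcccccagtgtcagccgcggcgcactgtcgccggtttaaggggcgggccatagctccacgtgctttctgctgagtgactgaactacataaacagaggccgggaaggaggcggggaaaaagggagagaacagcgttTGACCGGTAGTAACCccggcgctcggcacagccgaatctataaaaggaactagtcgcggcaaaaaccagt

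The Hmgcs1 stretch is chr2:53382054-53382303 on the plus strand, and its CCAAT motifs begin 188 and 133 bases before the start. The Idi1 stretch is chr17:66547525-66547774 on the minus strand, with motifs 66 and 35 bases before the start. The Abca1 stretch is chr5:72596474-72596723 on the minus strand, and its LXR repeat begins 70 bases before the start. CCAAT stood in 12 of the 15 synthesis promoters matched and in 37.5% of all 33469 rat promoters in the table. GGGCGG stood in 13 of those 15, against 33.1% of all promoters. Both motifs were also common in the other branches: CCAAT in 3 of 4 promoters of sterol sensing, 2 of 5 of efflux and LXR, 3 of 4 of fatty acid synthesis and that of Soat1, and GGGCGG in 3 of 4, 3 of 5, 3 of 4 and that of Soat1. The LXR repeat was found in 1 of the 29 member promoters, that of Abca1, and in 0.675% of all, while the strict sterol element was found in 0 of the 29 and in 1.12% of all. These matches describe the letters in the window, and no binding was measured.

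Of 46 libraries, 41 were counted as separate samples: 5 pairs of lung libraries of the same group differed in 7.69% to 9.64% of genes (chi-square p under 0.05 for each gene), against 21.3% or more in the other lung pairs, and each such pair was averaged and counted once. At 1 day this left 4 lungs from air and 6 from silica, at 6 months 2 and 5, and in each blood group 6 libraries. The labels do not say that libraries of a group came from separate animals, so the p-values speak only of the spread from library to library. Lung libraries held between 13.4 M and 24.6 M estimated counts (M for mega), and blood libraries between 10.6 M and 17.5 M. Levels are given as CPM, the counts per megacount of the library after scaling, tests are edgeR's quasi-likelihood test with Benjamini-Hochberg adjustment over all genes tested in a comparison, and a gene was called higher or lower where the adjusted p was under 0.05. In bulk tissue, fewer cells of a type and less RNA per cell cannot be told apart.

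The lungs also differed in marker genes of several cell types. In the summed level of the 7 neutrophil genes, air lungs lay between 339 and 416 CPM and silica lungs between 1151 and 1571 CPM at 1 day, and at 6 months the ranges were 178 to 233 and 1144 to 3217 CPM. The 11 alveolar type 2 genes summed to 42666 to 49139 CPM in air and 53625 to 60799 CPM in silica lungs at 1 day, and to 26997 to 30946 and 49969 to 108512 CPM at 6 months. This list includes the lysozyme gene Lyz2 and summed to 4285 to 8093 CPM in the bloods of 1 day, so its sum is not particular to type 2 cells. Both 6-month air lungs stood apart from the other lungs in lymphocyte genes, at 1414 and 1981 CPM over 12 genes against 169 to 543 CPM in every other lung library counted, and in proliferation genes, at 695 and 771 CPM over 10 genes against 104 to 364 CPM. At 1 day the proliferation genes summed to 104, 106, 114 and 322 CPM in air and 185 to 305 CPM in silica lungs, so all air lungs but 1 lay below every silica lung. In 6-month silica lungs they summed to 178 to 364 CPM. The 12 alveolar macrophage genes ran from 2327 to 2697 CPM in air and 2603 to 2964 CPM in silica lungs at 1 day, and from 2413 to 2598 and 2604 to 4660 CPM at 6 months. This list summed to 1480 to 2857 CPM in the bloods of 1 day and 1086 to 4127 CPM in those of 6 months. Its sum is therefore not particular to alveolar macrophages. The 8 endothelial genes summed to 3224 to 3789 CPM in air and 2837 to 3143 CPM in silica lungs at 1 day, with no overlap, and to 2608 to 2781 and 1916 to 2681 CPM at 6 months. The 7 adipocyte genes, scarce in all lungs, summed to 16.1 to 19.8 CPM in air and 13.3 to 16.8 CPM in silica lungs at 1 day, and to 10.6 and 19.6 CPM in air against 16.5 to 43.6 CPM in silica lungs at 6 months. The part of these differences in the results below was not tested.

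**Figure D1:**
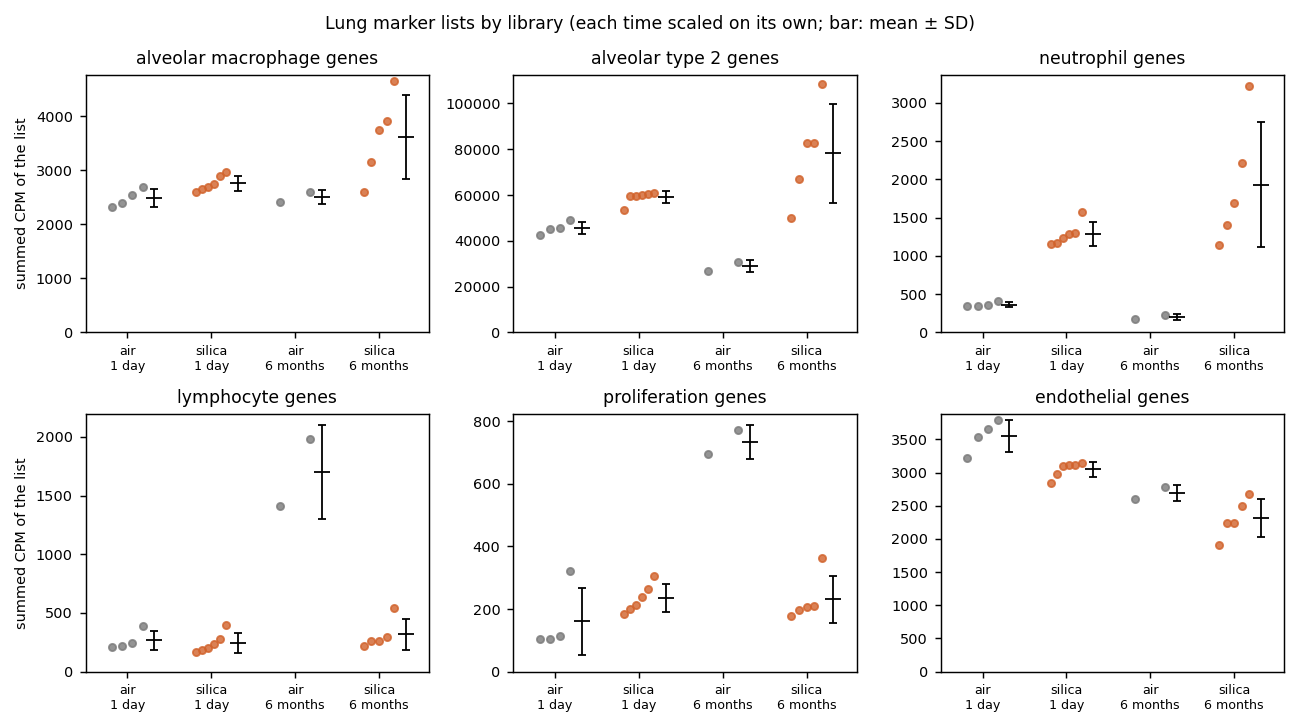
Summed CPM of 6 marker lists in each lung library (points) by group, with the mean ± SD beside them; grey is air and orange is silica. The 2 air lungs of 6 months are highest in lymphocyte and proliferation genes and lowest in alveolar type 2 genes.

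One day after exposure, cholesterol synthesis was raised in silica lungs along nearly its whole length, and the exporter Abca1 was lowered. Of the 18 synthesis genes 16 rose and 0 fell, with a median log2 fold change of 0.66, against 0.00 over the 15724 genes tested. Over the 35 members tested 21 rose and 3 fell, and 11.7% of all genes tested were called. Among all genes 7.61% were called higher and 4.07% lower. In 15 of the 18 synthesis genes every silica lung lay above every air lung, which held for 7.41% of all genes. Elovl6 had too few counts to be tested at 1 day.

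In the mevalonate steps, which build the isoprenoid units, Hmgcs1 encodes the synthase that makes HMG-CoA. Its level was 48, 52.8, 61.5 and 65.4 CPM in the 4 air lungs and 95.4 to 122 CPM (median 108) in the 6 silica lungs. The lowest silica lung was well above the highest air lung, and the log2 fold change was 0.92 ± 0.10 (SE, adjusted p = 8.52e-05). Idi1, the isomerase that converts isopentenyl diphosphate to its reactive form, was at 22.5, 26, 28.5 and 32.1 CPM in air and 50.1 to 70.3 CPM (median 54) in silica lungs. This was the largest rise among the members, 1.04 ± 0.11 on the log2 scale or 2.06-fold (adjusted p = 0.000143), and again the groups did not overlap. Library 11 was the highest of the silica lungs for Idi1 and for 14 of the 18 synthesis genes in all, and without it 18 members rose and 4 fell. Acat2, the thiolase that joins acetyl-CoA units at the head of the pathway, was at 6.2, 6.6, 6.95 and 7.2 CPM in air and 10.2 to 14.3 CPM (median 10.9) in silica lungs. Its silica lungs were all above the air lungs, with a log2 fold change of 0.77 ± 0.11, although Salmon gave Acat2 a count that was not whole in 100% of libraries, so part of its reads was shared with another transcript.

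The remaining mevalonate genes rose less. Fdps, which makes farnesyl diphosphate, rose from 85.4 ± 2.18 to 134 ± 15.2 CPM (SD, n = 4 and 6), and Mvd, the mevalonate diphosphate decarboxylase, from 7.999 ± 0.872 to 12.6 ± 1.44 CPM, both with no overlap between groups. Pmvk, phosphomevalonate kinase, passed narrowly at 0.30 ± 0.09 (adjusted p = 0.047) with overlapping groups, and it lost the call in 12 of 16 alternative settings. Mvk, mevalonate kinase, did not pass, at 0.24 ± 0.08 (adjusted p = 0.0839).

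The squalene steps rose as a block. Fdft1, squalene synthase, was at 40.9, 48.5, 48.9 and 49.3 CPM in air and 67.9 to 83.8 CPM (median 77.6) in silica lungs, a log2 fold change of 0.70 ± 0.08 (adjusted p = 5.18e-05). Sqle, the epoxidase that is a control point of the later pathway, was at 22.8, 23.8, 24.1 and 28.3 CPM in air and 34.3 to 45.6 CPM (median 41.8) in silica lungs, a change of 0.73 ± 0.08. Lss, which closes the ring to lanosterol, was at 23.4, 24.3, 25.6 and 26.5 CPM in air and 29.7 to 39.6 CPM (median 32) in silica lungs, a smaller change of 0.39 ± 0.08. None of these genes had overlapping groups, and 1 air lung, library 06, was the lowest for both Fdft1 and Sqle. The Lss counts were not whole in 100% of libraries.

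After lanosterol, 7 of 8 genes rose. Cyp51, the lanosterol demethylase, was at 56.6, 60.01, 63 and 65.2 CPM in air and 93.4 to 123 CPM (median 103) in silica lungs, a log2 fold change of 0.78 ± 0.07 (adjusted p = 1.64e-05). Hsd17b7, a sterol ketoreductase, was at 5.68, 7.002, 7.25 and 7.45 CPM in air and 9.2 to 16 CPM (median 13.2) in silica lungs, a change of 0.88 ± 0.15. Tm7sf2, a sterol reductase of low level, was at 1.53, 2.95, 2.97 and 3.59 CPM in air and 4.01 to 5.95 CPM (median 4.74) in silica lungs, a change of 0.79 ± 0.21 (adjusted p = 0.0249). All silica lungs were above all air lungs for these genes, but the call of Tm7sf2 was lost in 4 of 16 alternative settings. Smaller rises were measured for Dhcr7 (0.61), the last reductase of the pathway, and for Msmo1 (0.51), Sc5d (0.49) and Nsdhl (0.34), which remove methyl groups or add double bonds. Ebp, the sterol isomerase, did not pass, at 0.11 ± 0.06 (adjusted p = 0.301).

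Among the sterol sensors, 2 of 5 rose and 0 fell, with a median log2 fold change of 0.13. Insig1, itself a target of SREBP2, was at 107, 112, 116 and 116 CPM in air and 145 to 186 CPM (median 164) in silica lungs, with no overlap and a change of 0.54 ± 0.07 (adjusted p = 0.000266). Srebf2, which encodes SREBP2, was at 151, 156, 167 and 179 CPM in air and 172 to 203 CPM (median 189) in silica lungs. The highest air lung, library 04 with 08, lay among the silica lungs, and the change was small at 0.21 ± 0.05 (adjusted p = 0.0235), a call lost in 8 of 16 alternative settings. Insig2, which is not driven by SREBP2, did not pass at -0.02 ± 0.06, and its silica lungs, 27.1 to 33.3 CPM (median 29.6), surrounded its air lungs, 29.8, 30.01, 30.3 and 30.6 CPM. Scap (-0.09 ± 0.04, adjusted p = 0.163) and the sterol carrier gene Stard4 (0.13 ± 0.05, adjusted p = 0.107) did not pass either.

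In the efflux and LXR group 1 of 6 genes rose and 2 fell, with a median of -0.14. Abca1, which exports cholesterol to lipid-poor apolipoprotein, was at 149.5, 163, 175 and 188 CPM in the air lungs and 92.5 to 101 CPM (median 97.1) in the silica lungs. Silica lungs lay close together and far below air lungs, so that the level fell to 0.576 of that in air, a log2 fold change of -0.80 ± 0.06 (adjusted p = 1.06e-06). Mylip was at 81.8, 84.2, 84.6 and 86.4 CPM in air and 56.5 to 73.5 CPM (median 60.9) in silica lungs, a change of -0.44 ± 0.06 (adjusted p = 0.000445), also with no overlap. Every silica lung below every air lung was found for 4.03% of all genes. Lpcat3, an enzyme that remodels phospholipids and is known as an LXR target, went the other way, from 55.4, 57.2, 58 and 59.8 CPM in air to 59.8 to 76.8 CPM (median 68.5) in silica lungs, a change of 0.25 ± 0.06 (adjusted p = 0.0152). The lowest silica lung, library 14, came level with the highest air lung.

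The other exporter and the receptors themselves did not pass at 1 day. Abcg1, which exports cholesterol to mature lipoprotein particles, was at 327, 329, 336 and 345 CPM in air and 286 to 342 CPM (median 315) in silica lungs, a log2 fold change of -0.09 ± 0.05 (adjusted p = 0.35). Nr1h3, which encodes LXR alpha, was at 55, 55.8, 60.03 and 68.1 CPM in air and 52.5 to 59.5 CPM (median 54.1) in silica lungs, a change of -0.12 ± 0.06. In both genes 4 of the 6 silica lungs lay below every air lung and the other two within the air range. Nr1h2, which encodes LXR beta, had a change of -0.15 ± 0.06 (adjusted p = 0.132).

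The fatty acid branch was split at 1 day, with 1 of 5 tested genes up, 1 down and a median of -0.03. Fasn, fatty acid synthase, was at 654, 707, 708 and 720.1 CPM in air and 833 to 1177 CPM (median 956) in silica lungs, a log2 fold change of 0.49 ± 0.08 (adjusted p = 0.00176). Srebf1, which encodes SREBP1, was at 93.6, 95.1, 101 and 118 CPM in air and 65 to 82.6 CPM (median 72.4) in silica lungs, a change of -0.46 ± 0.08 (adjusted p = 0.00216). Neither gene had overlapping groups, and the enzyme was higher and its transcriptional activator lower in the same lungs. Scd, the stearoyl-CoA desaturase, was at 1278, 1341, 1350.1 and 1432 CPM in air and 997 to 1425 CPM (median 1067) in silica lungs. Of the silica lungs 5 were below the air lungs and library 11 was not, and the change of -0.27 ± 0.09 did not pass (adjusted p = 0.0622). Scd counts were not whole in 100% of libraries, so its level is uncertain where reads were shared. Acaca, the carboxylase that commits acetyl-CoA to fatty acids, was at 64.6, 67.3, 72.3 and 74.5 CPM in air and 63.4 to 75.6 CPM (median 67.1) in silica lungs, with a change of -0.03 ± 0.06 and overlapping groups. Acly, which supplies cytosolic acetyl-CoA, had a change of 0.02 ± 0.06.

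Soat1, which esterifies cholesterol for storage in droplets, was at 129.996, 131, 137 and 143 CPM in air and 163 to 190.3 CPM (median 175) in silica lungs at 1 day. All silica lungs were above all air lungs, and the log2 fold change was 0.38 ± 0.05 (adjusted p = 0.000198).

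**Figure D2:**
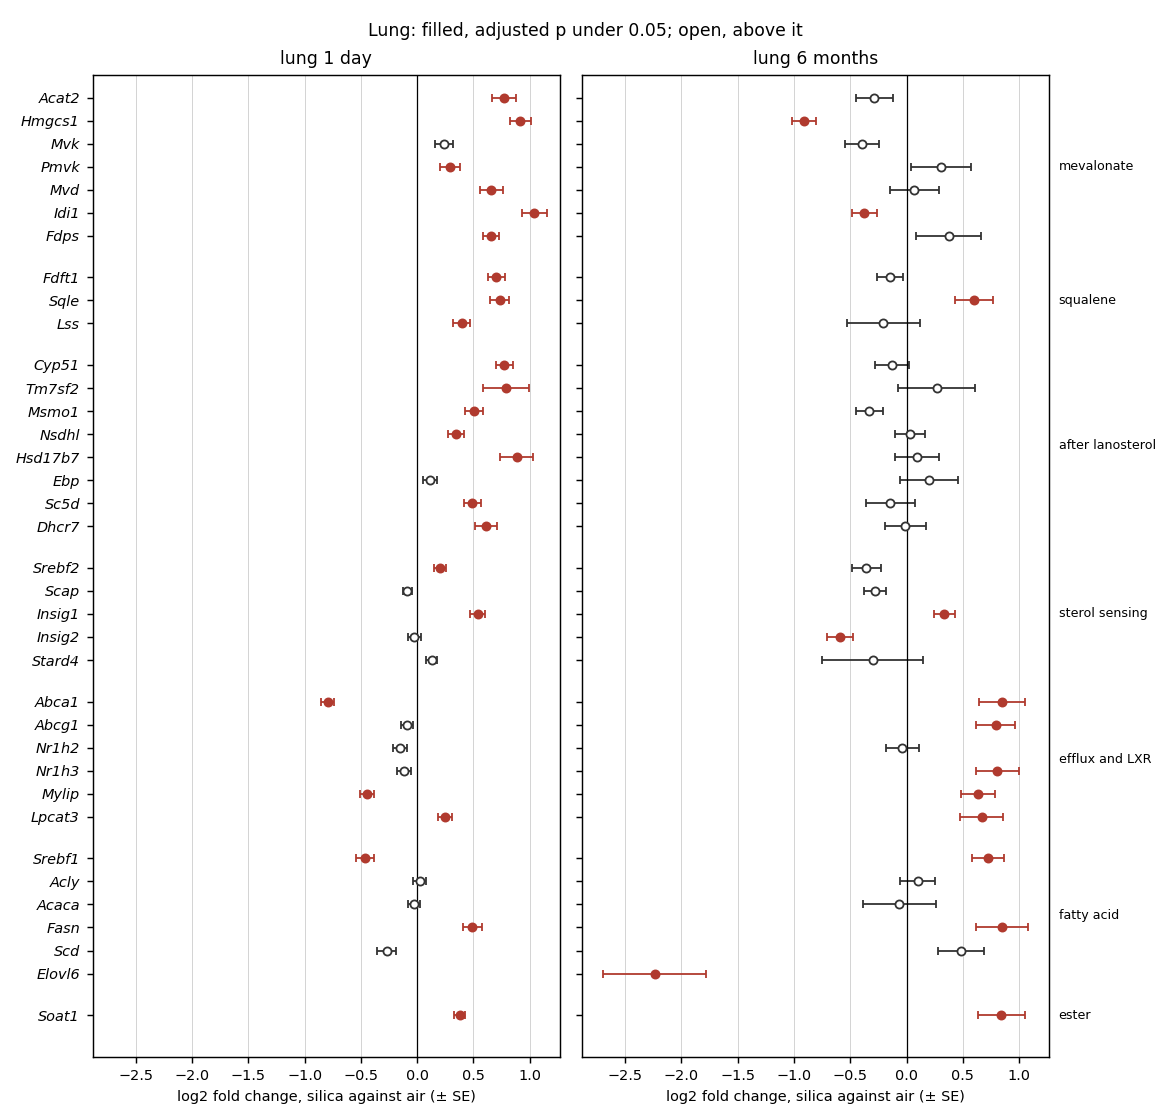
Log2 fold change of silica against air with its standard error for each member in lung, by branch, at 1 day (left) and 6 months (right); filled red points passed an adjusted p of 0.05 and Elovl6 was not tested at 1 day. Synthesis genes lie to the right of 0 at 1 day and scatter around it at 6 months, while Abca1, Mylip and Srebf1 change side.

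At 6 months the pattern in lung was different: 5 of the 6 efflux and LXR genes, Soat1, Srebf1 and Fasn were higher in silica than in air lungs, and synthesis was not raised as a group. Of the 36 members tested 10 rose and 4 fell, where 19.6% of the 16267 genes tested were called, 9.51% higher and 10.1% lower. Among those that fell, Elovl6 passed the filter on low counts only through the air lungs. Synthesis had 1 gene up and 2 down of 18, with a median log2 fold change of -0.07, and efflux and LXR had 5 of 6 up and 0 down, with a median of 0.73. The median over all genes was 0.00. All of this rests on 2 air libraries. With either left out, 1 air lung remained, and nearly all calls of members and most of those over all genes were lost. Without silica library 32, 34 or 35, the members called higher numbered 5, 4 and 2. Over all genes tested, 1080 of 16131, 812 of 16144 and 808 of 16219 were then called higher, against 1547 of 16267.

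Abca1 was at 78.4 and 80.6 CPM in the 2 air lungs and at 112, 126, 133, 162 and 182 CPM in the 5 silica lungs. The silica lungs were all higher but spread widely, and the log2 fold change was 0.85 ± 0.20 (adjusted p = 0.0263). Abcg1 was at 229 and 238 CPM in air and 306, 404, 428, 440.2 and 444 CPM in silica lungs, a change of 0.79 ± 0.17 (adjusted p = 0.0188), with the averaged silica library 30 with 31 lowest. Nr1h3 was at 32.3 and 38 CPM in air and 48.5, 57.2, 57.5, 70.3 and 74.3 CPM in silica lungs, a change of 0.81 ± 0.19 (adjusted p = 0.0242). Mylip was at 37.4 and 48.1 CPM in air and 59.5, 62.7, 64.7, 68.3 and 77.1 CPM in silica lungs, a change of 0.64 ± 0.15 (adjusted p = 0.0252). Lpcat3 was at 55 and 55.5 CPM in air and 66.4, 79.9, 90.5, 92.9 and 109.9 CPM in silica lungs, a change of 0.67 ± 0.19 (adjusted p = 0.0455). In all of these genes every silica lung was above both air lungs, as in 21.2% of all genes tested. Nr1h2 was level between the groups, with a change of -0.04 ± 0.15.

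In the fatty acid branch at 6 months 2 of 6 genes rose, 1, the scarce Elovl6, fell and the median was 0.29. Srebf1 was at 52.9 and 57.8 CPM in air and 83, 83.2, 85.3, 97.8 and 108 CPM in silica lungs, a log2 fold change of 0.73 ± 0.14 (adjusted p = 0.0148). Fasn was at 576 and 608 CPM in air and 818, 909, 1011, 1143 and 1442 CPM in silica lungs, a change of 0.85 ± 0.23 (adjusted p = 0.04). Scd was at 832 and 842 CPM in air and 957, 993, 1174, 1188 and 1535 CPM in silica lungs, and although the groups were apart its change of 0.48 ± 0.20 did not pass (adjusted p = 0.138). Srebf1 and Fasn were therefore both higher in silica lungs at this time. Acaca was at 59.9 and 66.7 CPM in air and 32.8, 47, 67.9, 76.9 and 78.1 CPM in silica lungs, and it did not pass (-0.06 ± 0.32). Silica libraries 33 and 35 lay below air for Acaca and the other 3 above it. Acly had a change of 0.10 ± 0.16.

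Elovl6, the elongase acting on palmitate, was scarce, at 1.62 and 2.09 CPM in air and 0.118, 0.28, 0.44, 0.45 and 0.631 CPM in silica lungs. Its log2 fold change was -2.24 ± 0.46 (adjusted p = 0.0161). The air lungs held 28 and 46 counts and the silica lungs 2 to 13. Elovl6 thus passed the filter on low counts only through the air lungs, and its fall is not ranked with those of the other members. The silica values are near the level of 3 counts, 0.122 to 0.224 CPM in lung, and 65.2% of libraries had an Elovl6 count that was not whole. Soat1 was at 108 and 109 CPM in air and 153, 167, 179.7, 219.6 and 252 CPM in silica lungs, all silica lungs higher, with a change of 0.84 ± 0.21 (adjusted p = 0.0298).

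Synthesis genes moved in both directions at 6 months. Hmgcs1 was at 127 and 131 CPM in air and 60.7, 68.2, 68.4, 72 and 73.7 CPM in silica lungs, far apart, with a log2 fold change of -0.91 ± 0.11 (adjusted p = 0.00502). Idi1 was at 52.6 and 58.2 CPM in air and 39.4, 40.4, 42.8, 45.3 and 45.8 CPM in silica lungs, a change of -0.37 ± 0.11 (adjusted p = 0.0474) that lost its call in 8 of 13 alternative settings. Every silica lung was below both air lungs for both, as in 23.7% of all genes tested. Sqle went the other way, at 19.97 and 25.6 CPM in air and 29.8, 32.2, 33, 37.2 and 41 CPM in silica lungs, a change of 0.60 ± 0.17 (adjusted p = 0.0424). The other 15 synthesis genes did not pass, with log2 fold changes from -0.40 (Mvk) to 0.37 (Fdps).

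Of the synthesis genes that did not pass, Acat2 was at 10.3 and 12.1 CPM in air and 8.3, 8.8, 8.83, 8.86 and 11 CPM in silica lungs. Fdft1 was at 63.6 and 67.8 CPM in air and 53.5, 55.2, 58.9, 62.2 and 67 CPM in silica lungs, and Lss at 28.1 and 32.3 and 14.2, 21.2, 27.7, 30.4 and 37.2 CPM. Cyp51 was at 101 and 112 CPM in air and 83.3, 83.6, 99.8, 107 and 113 CPM in silica lungs. In these genes the groups overlapped. Hsd17b7 was at 7.6 and 7.68 CPM in air and 6.6, 7.47, 7.74, 9.08 and 9.87 CPM in silica lungs, and Tm7sf2 at 2.66 and 3.1 and 2.13, 2.78, 3.52, 3.74 and 5.18 CPM, both overlapping. Silica library 33 stood apart in this branch: it was the highest of the 7 lungs for Pmvk (32.1 CPM), Fdps (211 CPM), Ebp (28.2 CPM) and Mvd (19.7 CPM) and the lowest for Lss (14.2 CPM). It was also lowest for Stard4 (11.5 CPM) and Acaca (32.8 CPM), and library 35 was next to it in each of these but Mvd. Over the 18 synthesis genes library 33 was the highest silica lung for 12 and the lowest for 3. It also had the highest sums of all lungs in type 2 (108512 CPM), alveolar macrophage (4660 CPM) and neutrophil genes (3217 CPM). The part of these sums in its values was not tested.

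Among the sensors at 6 months Insig1 rose and Insig2 fell, with a median over the 5 genes of -0.30. Insig1 was at 86.4 and 93.8 CPM in air and 111, 112, 114, 115 and 117 CPM in silica lungs, a log2 fold change of 0.34 ± 0.10 (adjusted p = 0.0469). Its silica lungs were tightly grouped above both air lungs, yet the call was lost in 7 of 13 alternative settings. Insig2 was at 37 and 42.9 CPM in air and 24, 25.8, 27.4, 27.5 and 27.7 CPM in silica lungs, a change of -0.59 ± 0.11 (adjusted p = 0.0133). Srebf2 was at 186 and 202 CPM in air and 127, 152, 155, 161 and 163 CPM in silica lungs, all silica lungs lower, but its change of -0.36 ± 0.13 did not pass (adjusted p = 0.0873). Scap had a change of -0.28 ± 0.10 (adjusted p = 0.0784) and Stard4 of -0.30 ± 0.45.

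Related genes outside the 36 were counted from lists of the same pathways. At 1 day 3 of 8 tested genes of other sterol synthesis roles rose, 2 of 10 of fatty acid metabolism and 1 of 6 LXR targets, with 0 falling, and of 13 genes of sterol transport 5 rose and 2 fell. Over all genes tested at 1 day, 7.61% were called higher and 4.07% lower. The largest changes in these lists were Lrp8, a lipoprotein receptor (0.74 ± 0.18), Npc2, which moves cholesterol out of lysosomes (0.69 ± 0.04), and Nceh1, a cholesteryl ester hydrolase (0.52 ± 0.07). Npc2 went from 621 ± 27.8 to 998 ± 23.6 CPM (SD, n = 4 and 6). At 6 months 0 of 8, 3 of 11, 2 of 6 and 5 of 13 genes of these lists rose, and 1, the LXR target Arl4c (-1.08 ± 0.18), fell. Over all genes tested at 6 months, 9.51% were called higher and 10.1% lower. The largest rises were again Npc2 (1.60 ± 0.38), then Smpdl3a, an LXR target (1.18 ± 0.27), and Ch25h, which makes an oxysterol (1.15 ± 0.23). Npc2 went from 511 ± 50.7 to 1549.8 ± 571 CPM at that time (SD, n = 2 and 5). LXR targets outside the 36 thus went in both directions at 6 months.

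The silica effect, that is the difference between silica and air lungs, differed between the times. At 6 months it rests on the 2 air lungs that stood apart in marker genes. In a fit of all 4 lung groups the effect at 6 months minus that at 1 day was above 0 for 6 members and below 0 for 15, past the threshold, where 12.1% and 14.6% of the 16567 genes tested were called. Those 15 include Elovl6, which was too scarce to be tested at 1 day. Members with a higher late effect were Abca1 (1.62 ± 0.18, adjusted p = 7.89e-05), Srebf1 (1.16 ± 0.16), Mylip (1.05 ± 0.15), Nr1h3 (0.90 ± 0.17), Abcg1 (0.85 ± 0.15) and Scd (0.73 ± 0.20). Among the 18 synthesis genes 11 had a lower late effect, and the median difference over the branch was -0.65 against -0.02 over all genes. The largest were Hmgcs1 (-1.86 ± 0.15, adjusted p = 1.25e-05), Idi1 (-1.44 ± 0.16) and Acat2 (-1.08 ± 0.18). Cyp51 (-0.93), Fdft1 (-0.87), Msmo1 (-0.86), Hsd17b7 (-0.81), Mvk (-0.66), Sc5d (-0.66), Dhcr7 (-0.65) and Mvd (-0.62) followed. The other 4 were Elovl6 (-2.90), Insig2 (-0.59), Srebf2 (-0.59) and Scap (-0.22), of which Elovl6 is subject to its low counts. Fasn (0.33 ± 0.21, adjusted p = 0.269), Soat1 (0.44 ± 0.18, adjusted p = 0.0755), Sqle (-0.16 ± 0.17) and Insig1 (-0.22 ± 0.11) did not pass. Without air library 19 with 24 of 6 months, which left 1 air lung at that time, fewer members passed in each direction, as did fewer of all genes.

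When all lungs were scaled together, the air lungs of the 2 times were not at the same level. Abca1 was at 167 ± 16 CPM in air and 95.9 ± 3.15 CPM in silica lungs at 1 day, and at 82 ± 2.16 and 144 ± 28.5 CPM at 6 months (mean ± SD). The mean of its 6-month silica lungs thus lay between the means of the air lungs at the 2 times. Hmgcs1 was at 56.4 ± 7.98 and 106 ± 9.98 CPM at 1 day and at 133 ± 3.69 and 69.4 ± 5.25 CPM at 6 months, so its 6-month air lungs were the highest of the 4 groups. Mylip was at 83.4 ± 1.66 and 61.2 ± 5.84 CPM at 1 day and at 44.1 ± 8.16 and 67.2 ± 6.7 CPM at 6 months. Srebf1 was at 101 ± 11 and 72.9 ± 6.72 CPM at 1 day and at 57.1 ± 3.21 and 92.5 ± 11 CPM at 6 months. In both of these genes, as in Abca1, the 6-month air lungs were the lowest group. Fasn kept one order, at 689.9 ± 27.7 and 967 ± 119.8 CPM at 1 day and 610.3 ± 19 and 1076 ± 242 CPM at 6 months, with silica above air each time. Soat1 did likewise, at 134 ± 5.55 and 173 ± 9.5 CPM and then 112 ± 0.23 and 196 ± 40.5 CPM. These are the air lungs that stood apart in lymphocyte, proliferation and type 2 cell genes, and with 2 such libraries that and the passing of time cannot be told apart.

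**Figure D3:**
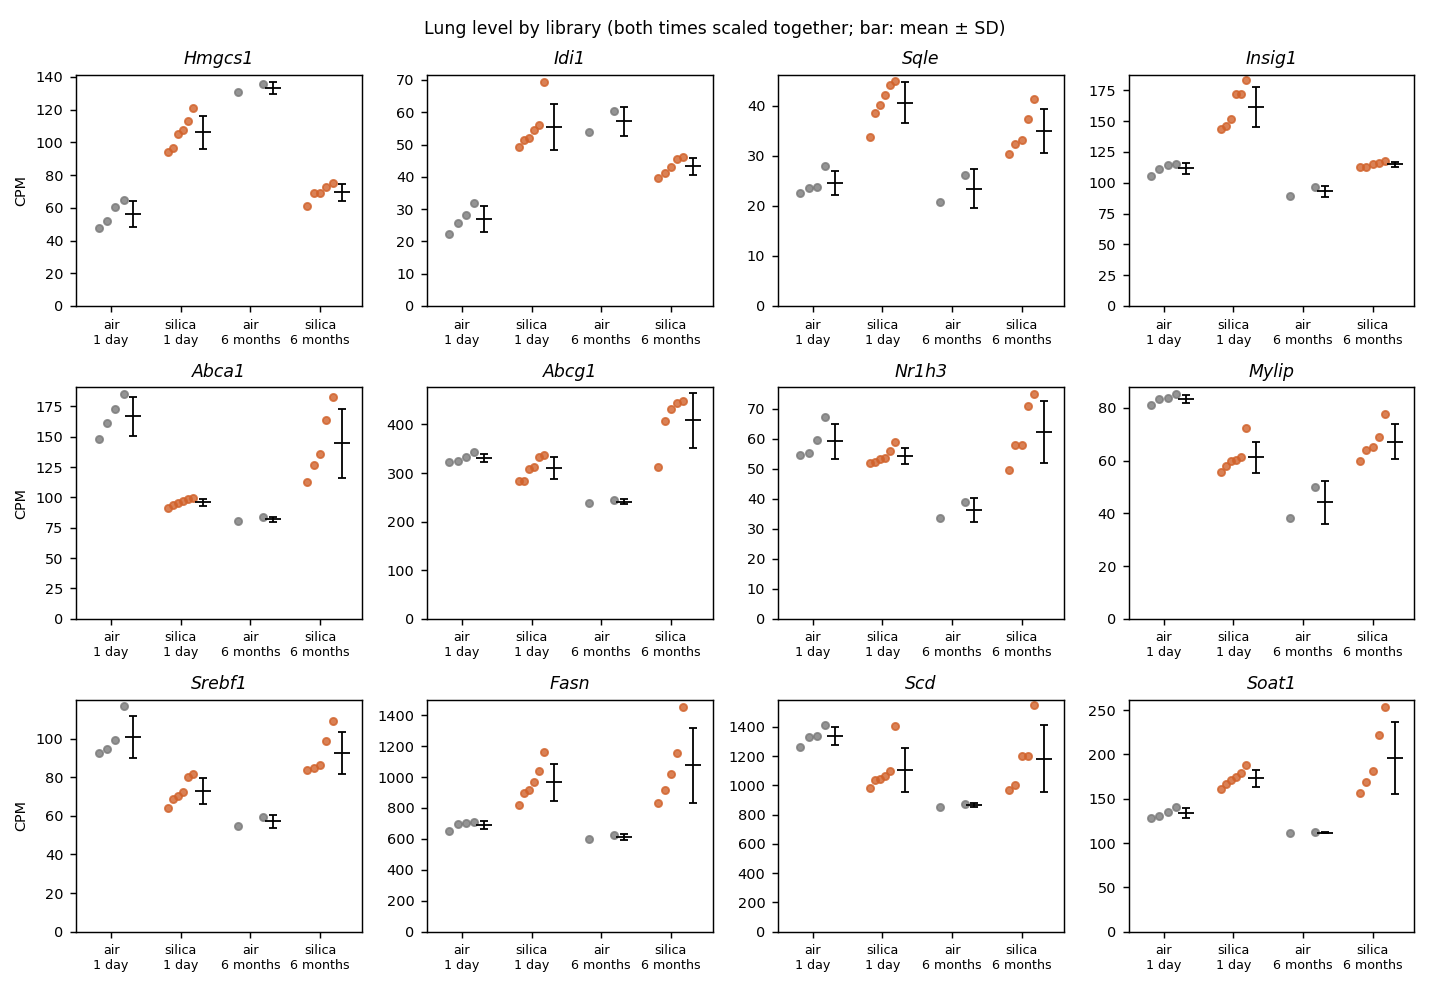
CPM of 12 members in each lung library (points), with both times scaled together, by exposure and time, with the mean ± SD beside the points; axes start at 0. Hmgcs1 and Idi1 are high in 6-month air lungs, where Abca1, Abcg1, Nr1h3, Mylip, Srebf1 and Scd are low, and Fasn, Sqle and Soat1 are higher in silica at both times.

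In blood, no member passed the threshold at either time. At 1 day 35 members were tested and 0 called, beside 0 of 11876 genes (0%), and at 6 months 34 were tested and 0 called, beside 0 of 11615 genes (0%). Unadjusted p was under 0.05 for 430 and 720 of all genes, and DESeq2 called 0 genes at 1 day and 5 higher and 2 lower at 6 months, with 0 members among them. The median log2 fold change of the synthesis genes was 0.04 at 1 day and -0.20 at 6 months, against -0.01 and 0.01 over all genes. That of the efflux and LXR genes was 0.15 and 0.10. No member had every silica blood above or below every air blood, which held for 0.0589% and 0.0758% of all genes at 1 day and 0.164% and 0.293% at 6 months. Elovl6 at both times and Tm7sf2 at 6 months had too few counts to be tested.

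In the 6 air and 6 silica bloods of 1 day, Hmgcs1 ran over 15 to 23.8 CPM (median 20.2) and 12.4 to 27.5 CPM (median 22.3). Sqle ran over 4.37 to 7.21 CPM (median 5.01) and 1.74 to 7.63 CPM (median 6.31), and Insig1 over 16.5 to 19.4 CPM (median 17.8) and 10.1 to 20.1 CPM (median 18.3). Srebf2 ran over 61.6 to 69.9 CPM (median 65.2) and 44 to 118 CPM (median 60.6). In these genes the silica range took in most of the air range. Abca1 ran over 7.83 to 10.6 CPM (median 9.33) in air and 5.77 to 9.25 CPM (median 7.05) in silica blood, a log2 fold change of -0.33 ± 0.14 whose adjusted p was 1. Abcg1 ran over 66.2 to 74.3 CPM (median 67.1) and 62.5 to 91 CPM (median 70.8), and Nr1h3 over 4.84 to 8.84 CPM (median 6.04) and 5.82 to 8.998 CPM (median 7.69). Mylip was at 39.8 to 52.5 CPM (median 46.1) in air and 50.6 to 55.6 CPM (median 53) in silica blood. Silica values of Mylip lay in and above the upper part of the air range, the reverse of lung, and the change was 0.21 ± 0.11 (adjusted p = 1). Srebf1 ran over 14.2 to 17 CPM (median 15) and 12.3 to 31.2 CPM (median 13.4), and Fasn over 26.6 to 54.8 CPM (median 32.5) and 23.5 to 55.1 CPM (median 29.2). Scd ran over 70.5 to 127 CPM (median 84.2) and 67.5 to 94.7 CPM (median 82.3), and Acaca over 8.05 to 11.1 CPM (median 9.43) and 4.97 to 10.4 CPM (median 7.81). Soat1 ran over 44.2 to 66.1 CPM (median 49.3) in air and 33.8 to 64.1 CPM (median 56.5) in silica blood. The widest silica ranges were set by library 11, which was highest for Srebf1, Srebf2 and Fasn and lowest for Sqle. Its neutrophil genes summed to 1864 CPM, against 4219 to 6072 CPM in the other silica bloods of 1 day. Its alveolar macrophage list summed to 2857 CPM, against 1578 to 1992 CPM, and its adipocyte list to 36.9 CPM, against 13.5 to 23.1 CPM. In all bloods of 1 day Atp6v0d2 of the macrophage list and Plin1 and Lep of the adipocyte list were at 0. These 2 lists therefore do not mark those cells in blood. The part of these differences in the values of library 11 was not tested.

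At 6 months the air bloods were spread by 1 library, number 25, which was highest for Hmgcs1 at 49.2 CPM, where the other 5 lay between 13.7 and 18.2 CPM. Hmgcs1 in silica blood was at 10.4 to 20.6 CPM (median 15.1), and its log2 fold change was -0.45 ± 0.31 (adjusted p = 0.658). Sqle ran over 2.05 to 5.5 CPM (median 3.69) in air and 3.15 to 5.72 CPM (median 3.54) in silica blood, and Insig1 over 9.83 to 17.7 CPM (median 11.7) and 8.21 to 13.6 CPM (median 12.2). Srebf2 ran over 39.9 to 46.7 CPM (median 45.9) and 36.1 to 51.6 CPM (median 39.8). These silica ranges overlapped those of air, and none of the changes passed. Abca1 ran over 4.76 to 8.79 CPM (median 7.51) and 4.76 to 9.99 CPM (median 8.43), and Abcg1 over 23.8 to 61.1 CPM (median 57.2) and 46.6 to 62.1 CPM (median 54.3). Nr1h3 ran over 3.09 to 10.3 CPM (median 6.28) and 4.76 to 10.8 CPM (median 5.83), and Mylip over 16.6 to 44.3 CPM (median 37.7) and 39.3 to 48.9 CPM (median 41). Library 25 was the lowest air blood for Abca1, Abcg1 and Mylip. Srebf1 ran over 7.11 to 11.1 CPM (median 9.29) and 7.99 to 11.3 CPM (median 9.59), and Fasn over 18.9 to 55.5 CPM (median 25) and 19.6 to 22.2 CPM (median 20.8). Scd ran over 45 to 117 CPM (median 56.1) and 50.5 to 62.5 CPM (median 55.7), and Acaca over 5.83 to 11.8 CPM (median 6.55) and 5.34 to 7.74 CPM (median 6.2). Soat1 ran over 22.4 to 55.4 CPM (median 39.7) in air and 33.3 to 55.8 CPM (median 49.8) in silica blood. For Fasn, Scd and Acaca library 25 was the highest air blood. Its lymphocyte genes summed to 927 CPM, against 357 to 551 CPM in the other air bloods, and its erythroid genes to 14322 CPM, the lowest of that group. The part of this in the values above was not tested.

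**Figure D4:**
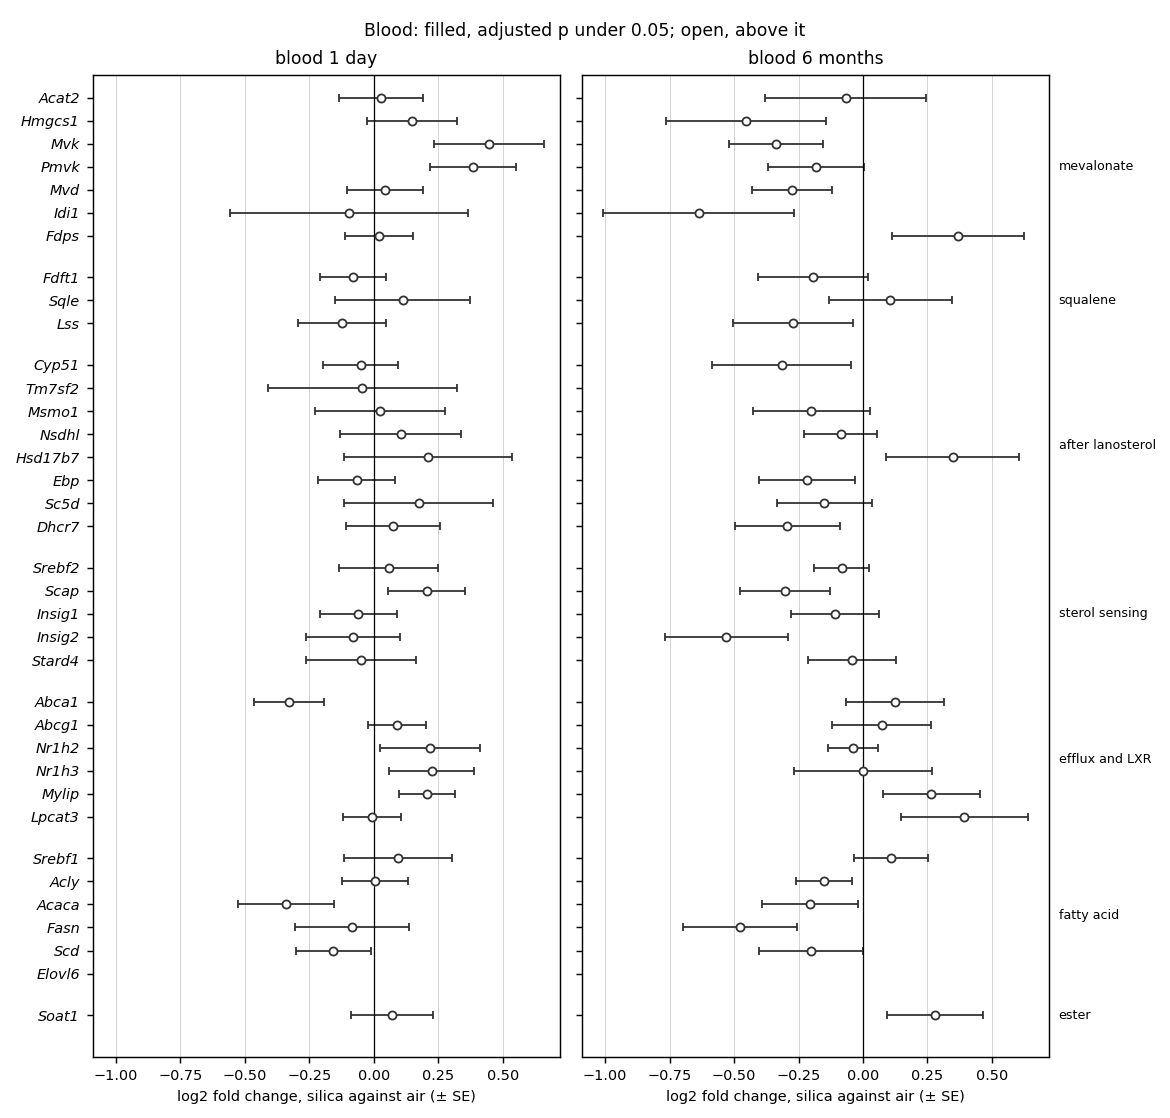
Log2 fold change of silica against air with its standard error for each member in blood at 1 day (left) and 6 months (right), by branch. All points are open because none passed an adjusted p of 0.05, and members without a point were not tested.

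The difference between tissues was tested directly. At 1 day the silica effect in lung minus that in blood passed for Fdft1 at 0.75 ± 0.15 (adjusted p = 0.0411) and for Mylip at -0.68 ± 0.13 (adjusted p = 0.0228), where 0.173% of the 16148 genes tested were called higher and 0.0186% lower. These calls were lost in 19 and 6 of 27 alternative settings. For the synthesis genes the median difference was 0.58, against 0.00 over all genes, and Idi1 had 1.08 ± 0.49 (adjusted p = 0.715), with 1 silica blood, library 11, at 0.109 CPM, under the level of 3 counts there (0.227 CPM). For Abca1 it was -0.51 ± 0.15 (adjusted p = 0.331). At 6 months 0 members were called, beside 1.17% of 16447 genes, 0.559% higher and 0.614% lower, and the median difference over all genes was 0.14. The members nearest the threshold were Fasn (1.46 ± 0.39, adjusted p = 0.071) and Srebf1 (0.76 ± 0.23, adjusted p = 0.119), and without blood air library 25 the number called higher was 7. Over all genes tested, 827 of 16414 were then called higher, against 92 of 16447.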

How the data were processed

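Lung and blood RNA of air- and silica-exposed rats was sequenced from stranded libraries of polyadenylated RNA, with globin transcripts depleted from blood, per the labels' protocols. Per the submitters' processing notes, Salmon 1.10.1 and STAR 2.6.1d were used with the build Rnor_6.0, beside Trim Galore 0.6.7, cutadapt 3.4 and bcl2fastq 2.19. The deposited values are Salmon's estimated counts per gene, made by the authors without scaling to depth or length; they were rounded to whole numbers here. Salmon splits reads that fit several transcripts, so levels of genes with shared reads are uncertain. Every column matched a sample by name.

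Library pairs of 1 group with under 10% of genes at chi-square p under 0.05 (among genes averaging 20 counts or more with whole estimates) were averaged. Tests used edgeR 4.0.16 in R 4.3.3: filterByExpr (count 10, total 15), TMM factors (0.950 to 1.03 in lung, 0.521 to 1.93 in blood), the robust quasi-likelihood F test and Benjamini-Hochberg adjustment over all genes tested, with a threshold of 0.05. Those TMM factors are of the fits within each tissue and time. With lung and blood in one fit they ran from 0.355 to 2.32. The fit was tested on simulated data. Differences between times or tissues were interaction contrasts of 4 group means. Standard errors are the log2 fold change divided by the root of its F value. Alternatives were RLE scaling, library totals only, no filter, every library separate, DESeq2 1.42.0, all 4 groups of a tissue in one fit, leaving out each library, and the title number as a block. A level of 3 counts was taken as the floor, which covers counting error only.

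The members and lists were chosen with earlier results of these data known. All 36 members are named, with values by library for 13 genes of the main branches and, in each branch, the 3 past the threshold with the largest change at each lung time. Arl4c was named after its value was seen. Numbers in titles were checked as pairs: of 17 lung and blood libraries sharing a number, 3 had deviations correlated above 0.1 over genes averaging 50 counts or more, so the numbers were not taken as pairs.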

Additional observations from a re-analysis of the deposited data

Results flagged for a closer look

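Libraries far from the others of their group were sought among the members' CPM values with Dixon's test, by which chance flags about 1 in 20 groups. Of 252 groups of values 47 had such a library, and most were 1 of 2 blood libraries. The share of such groups over all genes was not counted.

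Library 25 of the 6-month air bloods was far above its group for Hmgcs1 (49.2 CPM, next 18.2), Idi1 (20.03, next 6.46), Cyp51 (32.1), Msmo1 (19.5), Lss (7.62), Acat2 (4.15), Dhcr7 (3.96) and Nsdhl (10.6). It was also above its group for Fasn (55.5), Scd (116.7), Acaca (11.8), Insig2 (11.03), Scap (25.4) and Elovl6 (0.579), and far below it for Abcg1 (23.8), Mylip (16.6) and Abca1 (4.76). Synthesis genes were thus high and both exporters low in 1 air blood. By the chi-square test used for library pairs, library 25 differed from each other 6-month air blood in 86% to 88.2% of genes. Pairs of the other air bloods differed in 33% to 54.9%. The library was therefore far from its group over most genes, and its values are not particular to the members.

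Library 11 of the 1-day silica bloods was high for Srebf2 (118), Srebf1 (31.2), Nr1h2 (80.9), Scap (32.6), Acly (98.6), Fasn (55.1), Mvk (10.996) and Pmvk (8.93), and low for Msmo1 (3.48) and Sqle (1.74). It was also the lowest silica blood of 1 day in neutrophil genes (sum 1864 CPM). This blood differed from each other silica blood of 1 day in 72% to 78.2% of genes, and pairs of the others differed in 28.1% to 79.6%. Its departure too is not particular to the members. Among the 1-day silica lungs, library 11 was high for Fdps (165), Idi1 (70.3), Lss (39.6), Mylip (73.5) and Scd (1425), none of them flagged in blood library 11. Title numbers were not taken as pairs, and for number 11 the deviations in lung and blood had a correlation of 0.009.

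Other bloods far from their group at 1 day were silica library 12 for Fdft1 (9.94), silica library 15 for Elovl6 (0.649), and air library 04 for Fasn (54.8) and Nr1h2 (32.8). At 6 months they were silica library 36 for Nr1h3 (10.8), Sqle (5.72), Fdft1 (12.6) and Stard4 (16.3), library 32 for Insig1 (8.21) and library 31 for Lss (2.15). In lung they were silica library 12 for Ebp (14.4) and air library 06 for Fdft1 (40.9) at 1 day, and silica libraries 33 for Mvd (19.7), 34 for Acat2 (10.98) and the averaged 30 with 31 for Abcg1 (305.9) at 6 months.

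The silica effect differed between lung times for 21 members, as log2 differences of 6 months minus 1 day. At 6 months the effect rests on 2 air lungs that stood apart in lymphocyte, proliferation and type 2 cell genes. Those above 0 were Abca1 (1.62), Srebf1 (1.16), Mylip (1.05), Nr1h3 (0.90), Abcg1 (0.85) and Scd (0.73). Those below 0 in synthesis were Hmgcs1 (-1.86), Idi1 (-1.44), Acat2 (-1.08), Cyp51 (-0.93), Fdft1 (-0.87), Msmo1 (-0.86), Hsd17b7 (-0.81), Mvk (-0.66), Sc5d (-0.66), Dhcr7 (-0.65) and Mvd (-0.62). The rest were Elovl6 (-2.90), Insig2 (-0.59), Srebf2 (-0.59) and Scap (-0.22). Elovl6 was too scarce to be tested at 1 day and is not ranked with the others. Between lung and blood at 1 day the effect differed for Fdft1 (0.75) and Mylip (-0.68).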

How the results depend on the processing

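At 1 day in lung, the members called higher numbered 15 to 22 over the 6 other settings and 17 to 20 when each library was left out, against 21, and those called lower numbered 3 or 4 but 5 with every library separate, against 3. At 6 months in lung, leaving out each library gave 0 to 10 higher, against 10, and 0 to 6 lower, against 4; the lower calls numbered 8 with every library separate and 8 with all 4 lung groups in one fit. The difference between lung times gave 5 to 8 higher and 9 to 17 lower when each library was left out, against 6 and 15. For lung minus blood at 1 day, 0 members were higher, against 1, with RLE scaling, library totals only, no filter, or the replicate block, and 2 with every library separate; 0 were lower, against 1, with library totals only or the replicate block. Leaving out each library there gave 0 to 3 higher and 0 to 2 lower. At 6 months that contrast gave 3 higher with every library separate and 0 to 7 when each library was left out, against 0. Members called in blood numbered 0 in every setting run. In lung, calls over all genes moved with the settings too. At 6 months every library separate gave 3211 higher and 3185 lower of 15910 genes, against 1547 and 1642 of 16267. No member past the threshold changed sign under any setting run: of the single-member values, 4575 stayed on the same side of the threshold, called or not, 145 lost a call and 46 gained one. The cause of these changes was not tested, except that leaving out libraries leaves fewer samples; with 1 air lung left at 6 months, that lung is assumed to vary like the silica lungs. Library totals only moved the median log2 fold change of all genes in blood at 6 months to -0.30. In the paired fit with the replicate block, libraries were kept separate, and silica and air share no title numbers, so no paired analysis within a tissue was possible.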
